A study of Mus musculus with 9 samples.

Results

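Angiotensin, endothelin and adrenomedullin are small secreted peptides that act on G protein-coupled receptors of blood vessels and of many other cells. The set described here held 10 genes, 2 peptide genes (Edn1 and Adm), 5 receptor genes (Agtr2, Agtr1a, Ednra, Ednrb and Calcrl) and the genes of 3 receptor activity-modifying proteins (Ramp1, Ramp2 and Ramp3). They were picked by symbol with earlier results of these arrays known, so their levels and differences are given as descriptions without a p-value. Of the 10 genes, 9 had at least 1 probe set (a group of short array probes read as 1 signal) that named only that gene, with 16 probe sets among them, out of 18193 genes and 34945 such probe sets on the array. Ednra was not analysed here.

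Neurospheres, cultured cells and the auditory nerve tissue they were grown from were compared to learn how gene expression differs when cells of the adult nerve are expanded in culture and form floating spheres. All 3 groups (n = 3 arrays each) came from CBA/CaJ mice of both sexes, 8 to 12 weeks old, with no other treatment. Cultured cells were dissociated from the nerve with trypsin and grown on coated plates in medium with 10% serum for 5 to 7 days until confluent. Neurospheres came from such cultures after a change to serum-free proliferation medium with EGF (20 ng/ml), FGF (10 ng/ml) and heparin (2 µg/ml). For them 12 extra days are recorded, so neurospheres differ from the cultured cells in time and medium together. Nothing in the labels tells separate animals or cultures apart within a group, so every p-value below measures only the spread among the samples at hand, and that spread may be technical. The labels name no sort by cell type, and in mixed samples fewer cells of a type and less RNA per cell cannot be told apart.

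In blood vessels, angiotensin II raises tone through the type 1 receptor, which Agtr1a encodes in mice, while the type 2 receptor (Agtr2) is best known from the fetus and from injured tissue. Endothelin 1 constricts vessels through the receptor of Ednra, and the type B receptor (Ednrb) is also needed in neural crest cells, from which Schwann cells and melanocytes descend. Adrenomedullin dilates vessels and stabilises the endothelium. Its receptor is a pair of proteins: the receptor encoded by Calcrl binds adrenomedullin when joined with RAMP2 or RAMP3, and binds calcitonin gene-related peptide (CGRP) when joined with RAMP1.

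All values are log2 RMA signals, a scale on which a step of 1 is a doubling. The median signal of an array lay between 6.15 and 6.27. The labelled tissue carried the markers of a nerve: all 8 neuron markers and all 6 Schwann cell markers measured fell in both cultures against tissue (limma, adjusted p under 0.05 and fold over 1.5). Among 8 fibroblast markers, 7 rose in neurospheres, and 4 rose and 1 fell in cultured cells, by the same rule. Of 11 endothelial markers, 4 rose and 7 fell in neurospheres, and 2 rose and 7 fell in cultured cells, against tissue. The mean signal of those 11 was 6.68 to 6.92 in neurospheres and 6.91 to 6.96 in cultured cells, against 7.92 to 8.00 in tissue. RNA integrity also moved with culture, since the 3′ minus 5′ signal of the actin control averaged 0.70 ± 0.15 in neurospheres and 0.36 ± 0.04 in cultured cells, against 2.71 ± 0.35 in tissue (SD, n = 3 each). The part of cell makeup and of RNA integrity in the differences against tissue was not tested.

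A gene with several probe sets is represented by the one of highest average signal over all arrays, and differences are limma estimates with their standard error (SE). By the rule used for all genes (adjusted p under 0.05 over all genes and fold over 1.5), 8 of the 9 genes differed in neurospheres against tissue, 3 higher and 5 lower, where the rule called 42.7% of all genes, 21.7% higher and 21.0% lower. Against tissue, 8 also differed in cultured cells, 3 higher and 5 lower, with 42.4% of all genes called, 20.4% higher and 22.0% lower. Between neurospheres and cultured cells, 6 differed, with 17.9% of all genes called. These counts are a description, since the genes were chosen with values of the same arrays known.

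**Figure D1:**
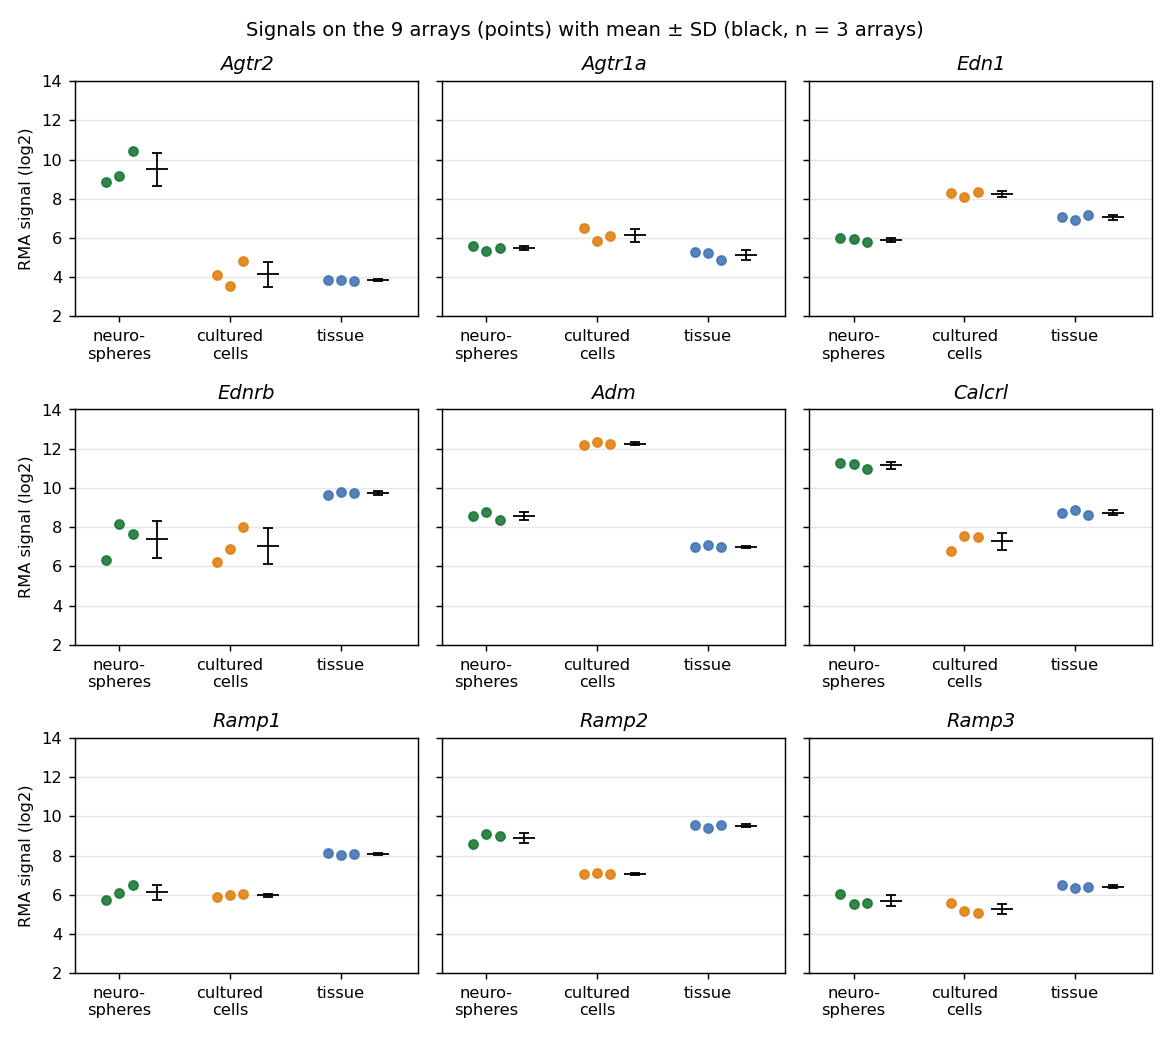
Log2 RMA signal of the 9 measured genes (vertical axis) on each of the 3 arrays of neurospheres, cultured cells and tissue (points), with the group mean ± SD (black). Agtr2 is high on the 3 neurosphere arrays alone, at 8.87 to 10.43, and Adm is high on the 3 cultured cell arrays, at 12.21 to 12.33.

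Both peptide genes had their highest signals in cultured cells. Adm, the adrenomedullin gene, read 8.57, 8.76 and 8.37 in neurospheres and 12.21, 12.33 and 12.25 in cultured cells, against 7.01, 7.07 and 6.97 in tissue. The 3 groups were fully separate and their order was cultured cells, neurospheres, tissue. The difference from tissue was 5.25 ± 0.08 (SE) in cultured cells, or 38.0-fold, and 1.55 ± 0.11 in neurospheres, or 2.94-fold. Neurospheres were lower than cultured cells by 12.9-fold, a difference of -3.70 ± 0.11. Its second probe set, 1416077_at, gave the same order, with differences of 1.76 in neurospheres and 5.83 in cultured cells against tissue.

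Edn1, the endothelin 1 gene, read 6.01, 5.92 and 5.79 in neurospheres and 8.27, 8.08 and 8.35 in cultured cells, against 7.05, 6.92 and 7.17 in tissue. The groups were again separate, but here tissue stood between the cultures. Cultured cells exceeded tissue by 1.18 ± 0.10 (2.27-fold) while neurospheres were below tissue, with a difference of -1.14 ± 0.10 (2.20-fold lower). Neurospheres lay 5.00-fold below cultured cells (-2.32 ± 0.10).

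The cultured cells with these high peptide signals also had the highest signals of the contractile genes Acta2, Tagln and Cnn1, which belong to the smooth muscle and pericyte markers. In cultured cells against tissue, 5 of those 10 markers rose and 4 fell, and Tagln, an actin-binding protein of smooth muscle, rose by 3.44 ± 0.11 (limma adjusted p = 4.97e-09). In neurospheres against cultured cells 3 rose and 4 fell, and Tagln fell by 3.80 ± 0.40 (adjusted p = 0.00017). The mean of the 10 markers was 7.45 to 7.87 in neurospheres and 8.50 to 8.70 in cultured cells, against 8.15 to 8.33 in tissue. Other markers of the list went the opposite way in cultured cells. Myh11, the smooth muscle myosin, fell by 2.21 ± 0.19 against tissue (adjusted p = 4.12e-06), Abcc9 fell by 2.41 ± 0.12 (adjusted p = 9.68e-08) and Kcnj8 fell by 1.81 ± 0.10 (adjusted p = 2.38e-07) by limma. The part of these cells in the Adm and Edn1 signals was not tested.

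Adrenomedullin transcription is known to respond to low oxygen, and 11 other genes with that known response did not all move one way. In neurospheres against tissue 4 rose and 3 fell, and in cultured cells against tissue 5 rose and 4 fell. The median difference in cultured cells was 0.12 beside -0.01 over all genes. Ldha, which makes lactate, rose by 2.04 ± 0.08 (limma adjusted p = 1.64e-08), whereas Ndrg1, which is also abundant in myelinating Schwann cells, fell by 3.25 ± 0.09 (adjusted p = 2.14e-09). In neurospheres against cultured cells, where Adm was lower, 3 of the 11 rose and 8 did not pass. The gene for the vascular growth factor VEGF-A, Vegfa, rose by 1.28 ± 0.24 there (limma adjusted p = 0.00391), opposite to Adm. Against tissue, where Adm was higher in both cultures, Vegfa rose by 2.69 ± 0.21 in neurospheres (adjusted p = 5.92e-06) and by 1.41 ± 0.13 in cultured cells (adjusted p = 9.11e-06). The part of oxygen in the Adm signal was not tested.

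Agtr2 was the receptor gene with the widest separation. It read 8.87, 9.17 and 10.43 in neurospheres and 4.10, 3.55 and 4.81 in cultured cells, against 3.88, 3.87 and 3.83 in tissue. Every neurosphere array lay above every other array, while cultured cells and tissue overlapped. Neurospheres exceeded tissue by 5.63 ± 0.34 (49.6-fold) and cultured cells by 5.34 ± 0.43 (40.4-fold). Between cultured cells and tissue the difference was 0.29 ± 0.25, within the spread of the cultured cell arrays, whose SD was 0.64. Without cultured cell replicate 2, the lowest of them, it was 0.60 and past the rule. No detection call was used here, so the low signals in tissue and cultured cells cannot be told apart from background, and the folds hold on the RMA scale only.

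Agtr1a, the type 1 receptor gene, followed another order. Its signals were 5.59, 5.36 and 5.51 in neurospheres and 6.50, 5.83 and 6.12 in cultured cells, against 5.30, 5.25 and 4.87 in tissue. All 3 cultured cell arrays were above the other 6, and the neurosphere arrays were just above tissue. Cultured cells exceeded tissue by 1.01 ± 0.17 (2.01-fold), and neurospheres by 0.35 ± 0.13, which did not pass the rule. Neurospheres were 1.58-fold below cultured cells (-0.66 ± 0.16), a difference of -0.49 and no longer past the rule without cultured cell replicate 1. With all arrays it did not pass by the methods' t-test with Benjamini-Hochberg adjustment either. The 2 angiotensin receptor genes therefore had their highest signals in different cultures, Agtr2 in neurospheres and Agtr1a in cultured cells. Most Agtr1a signals were under the lowest array median of 6.15, where no detection call tells them apart from background.

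The regions just before the start of Adm, Edn1 and Agtr2 are shown as examples of genes highest in one culture, cultured cells for Adm and Edn1 and neurospheres for Agtr2. Calcrl, also highest in neurospheres, is not shown and had no match to the motifs searched. Each is the run of 250 bases upstream of the start, 5′ to 3′ on the gene's strand, from RefSeq on the mouse assembly GRCm38.p6 (Adm chr7:110627407-110627656, Edn1 chr13:42301226-42301475, Agtr2 chrX:21484374-21484623, all on the plus strand). Capitals mark matches, on either strand, to the hypoxia response core NCGTG and the TATA box TATAA. The AP-1 site TGANTCA was also searched and matched none of them.
Adm: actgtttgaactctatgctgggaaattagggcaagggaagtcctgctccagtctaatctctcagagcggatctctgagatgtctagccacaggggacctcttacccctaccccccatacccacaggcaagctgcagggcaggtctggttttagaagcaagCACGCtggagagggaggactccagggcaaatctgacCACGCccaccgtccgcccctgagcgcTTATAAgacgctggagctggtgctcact
Edn1: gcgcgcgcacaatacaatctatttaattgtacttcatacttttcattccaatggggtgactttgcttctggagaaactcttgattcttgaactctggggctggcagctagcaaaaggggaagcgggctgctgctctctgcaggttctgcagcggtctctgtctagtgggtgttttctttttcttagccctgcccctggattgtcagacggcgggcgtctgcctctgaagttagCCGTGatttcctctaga
Agtr2: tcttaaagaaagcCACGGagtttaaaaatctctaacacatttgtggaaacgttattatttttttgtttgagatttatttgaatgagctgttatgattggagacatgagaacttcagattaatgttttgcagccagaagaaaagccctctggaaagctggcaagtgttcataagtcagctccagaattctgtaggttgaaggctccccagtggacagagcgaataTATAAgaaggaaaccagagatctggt
In Adm, NCGTG matched the other strand at 90 to 86 and at 54 to 50 bases before the start. TATAA matched at 27 to 23 bases, where the capitals join it to an overlapping match on the other strand. Agtr2 had TATAA at 26 to 22 bases and a distant NCGTG match at 237 to 233 bases on the other strand. Edn1 had NCGTG at 17 to 13 bases and no TATAA. Read on their own strand, the NCGTG matches of Agtr2 and Edn1 start with C and those of Adm start with G. Of 32851 mouse promoter windows of the same length, 55.4% held NCGTG, 22.8% held TATAA anywhere, 6.7% held TGANTCA, and 4.2% held TATAA on the gene strand within 40 bases of the start as Adm and Agtr2 did. Matches that start with G were not counted apart in those windows. Of the other genes of the set, 4 had a promoter entry and Agtr1a and Ramp2 had none. NCGTG matched Ednrb at 99 to 95 bases and Ramp3 at 219 to 215 and 65 to 61 bases, starting with G as in Adm. Both genes were highest in tissue. Ramp1 matched at 56 to 52 and 34 to 30 bases, starting with C. Calcrl matched none of the motifs.

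Ednrb, the endothelin type B receptor gene, was highest in tissue. Probe set 1437347_at read 6.32, 8.17 and 7.64 in neurospheres and 6.20, 6.88 and 8.03 in cultured cells, against 9.63, 9.82 and 9.74 in tissue. All 6 culture arrays were below the 3 tissue arrays, but they were widely spread and overlapped each other, with SDs of 0.95 in neurospheres and 0.92 in cultured cells, against 0.09 in tissue. Neurospheres lay 5.11-fold below tissue (-2.35 ± 0.39) and cultured cells 6.46-fold (-2.69 ± 0.36). Between the cultures the difference was 0.34 ± 0.54, less than the spread of the arrays.

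The size of the Ednrb difference depended on the probe set. Probe set 1423594_a_at differed by -0.61 in neurospheres and -0.65 in cultured cells against tissue, and 1426314_at by -0.06 and -0.52, none of them past the rule. With the mean of the 3 probe sets, the difference was -1.01 in neurospheres and -1.29 in cultured cells. The sign was negative in all 3 probe sets against tissue, but the -0.06 of 1426314_at in neurospheres had an SE of 0.22. By 1423594_a_at, the arrays of both cultures overlapped those of tissue. The part of probe position or transcript form was not tested.

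All 6 Schwann cell markers fell with Ednrb in both cultures, and melanocyte markers did so in part. The mean of the 6 Schwann cell markers was 7.79 to 8.24 in neurospheres and 8.03 to 8.25 in cultured cells, against 11.94 to 11.99 in tissue. Of 7 melanocyte markers, 3 fell and 4 did not pass in neurospheres, and 5 fell and 2 did not pass in cultured cells, against tissue, with means of 5.52 to 5.68 in neurospheres and 5.52 to 5.60 in cultured cells, against 6.70 to 6.83 in tissue. Kit, a receptor that melanocytes share with other cells, had the largest fall of the 7 in neurospheres, 5.13 ± 0.12 (limma adjusted p = 3.84e-09), while the difference of Tyr was 0.07 and that of Mitf -0.52. Within both culture groups, 3 of the 6 Schwann cell markers, Erbb3, Sox10 and Ngfr, put the arrays in the same order as Ednrb, and Mbp, Pmp22 and S100b did not. These 3 were singled out after their values were seen. In tissue, Ednrb read 9.63, 9.82 and 9.74, and only Ngfr of these 3 kept its order, with 8.88, 9.69 and 9.56. Sox10 at 11.47, 11.27 and 11.30 and Erbb3 at 10.80, 10.59 and 10.65 ran in the reverse order there. Erbb3, the neuregulin receptor of Schwann cells, read 6.81, 7.97 and 7.40 in neurospheres and 6.88, 7.15 and 7.69 in cultured cells. Pmp22, a myelin protein gene, read 10.08, 9.94 and 10.03 in neurospheres and 10.88, 10.62 and 10.77 in cultured cells, the highest signal of each group being on array 1, where Ednrb was lowest. With 3 arrays in a group this order was not tested, and the part of Schwann cell or melanocyte content in the Ednrb difference was not tested either.

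**Figure D2:**
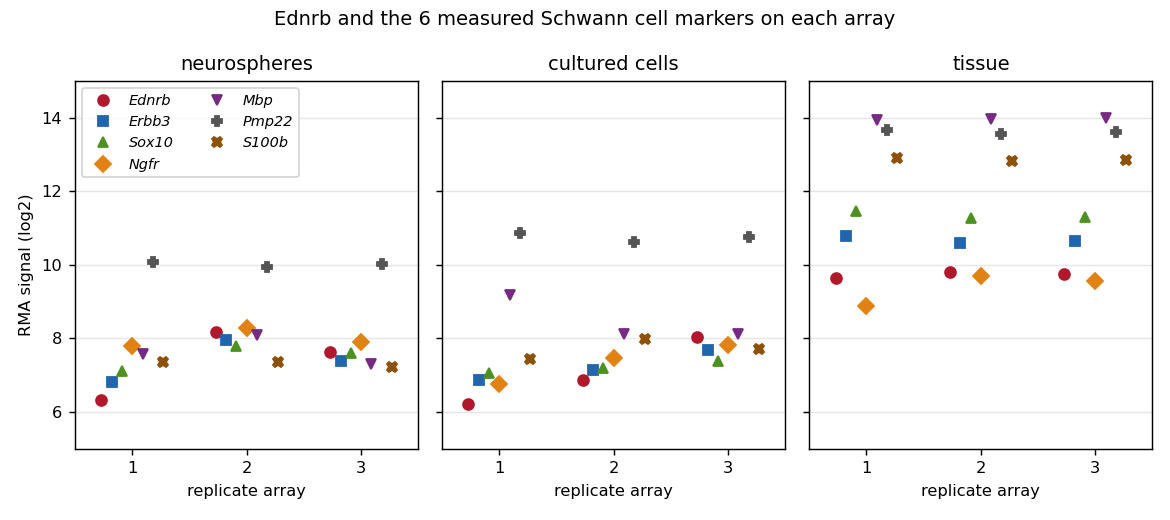
Log2 RMA signal (vertical axis) of Ednrb and the 6 measured Schwann cell markers on replicate arrays 1 to 3 of neurospheres, cultured cells and tissue. Ednrb, Erbb3, Sox10 and Ngfr are lowest on neurosphere array 1 and highest on array 2, and lowest on cultured cell array 1 and highest on array 3, whereas Mbp, Pmp22 and S100b run in other orders. On the tissue arrays, Erbb3 and Sox10 run in the reverse order of Ednrb.

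Calcrl, which encodes the receptor shared by adrenomedullin and CGRP, was highest in neurospheres. Probe set 1425814_a_at read 11.30, 11.23 and 10.95 in neurospheres and 6.78, 7.55 and 7.50 in cultured cells, against 8.73, 8.89 and 8.64 in tissue. The groups did not overlap, with tissue between the cultures. Neurospheres exceeded tissue by 2.41 ± 0.12 (5.31-fold) and cultured cells by 3.88 ± 0.20 (14.8-fold). Cultured cells were 2.78-fold below tissue (-1.47 ± 0.19).

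Other Calcrl probe sets shared the neurosphere peak only in part. Probe set 1418489_a_at read 6.87 to 7.36 in neurospheres and 4.45 to 4.56 in cultured cells, against 3.99 to 4.40 in tissue, so it was higher in neurospheres against both, by 2.92 against tissue and 2.58 against cultured cells. In cultured cells against tissue it differed by 0.34, not past the rule and opposite in sign to the first probe set. Probe set 1459536_at stayed between 2.60 and 3.12 on all 9 arrays. With no detection call used, its signals cannot be told apart from background. The same holds for 1418489_a_at in cultured cells and tissue. Averaged over the 3 probe sets, cultured cells differed from tissue by -0.45, not past the rule.

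**Figure D3:**
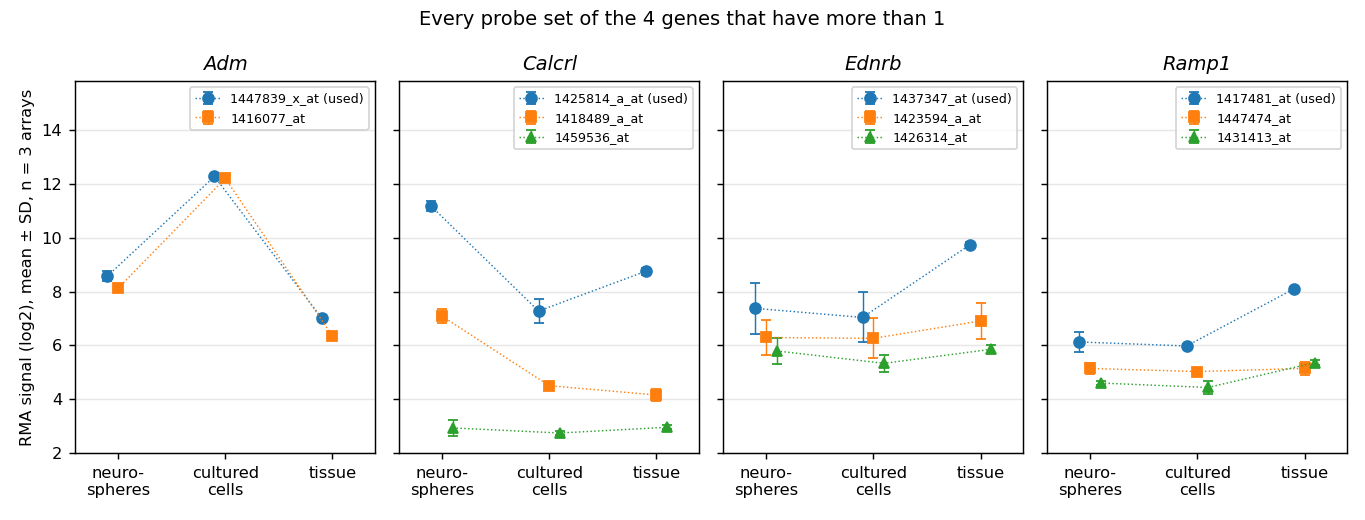
Mean log2 RMA signal ± SD (n = 3 arrays) of every probe set of Adm, Calcrl, Ednrb and Ramp1 in neurospheres, cultured cells and tissue, with the probe set used for the gene marked in the legend. The 2 Adm probe sets run together, while the tissue signal of Calcrl stands above that of cultured cells in 1425814_a_at and not in 1418489_a_at.

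The 3 receptor activity-modifying proteins, which decide what the Calcrl receptor binds and carry it to the cell surface, were all highest in tissue. Ramp1, the partner for CGRP, read 5.75, 6.12 and 6.52 in neurospheres and 5.88, 6.02 and 6.04 in cultured cells, against 8.14, 8.04 and 8.10 in tissue. The cultures overlapped each other well below tissue. Neurospheres differed from tissue by -1.97 ± 0.17 (3.90-fold lower) and cultured cells by -2.11 ± 0.08 (4.33-fold lower), with 0.15 ± 0.18 between the cultures. Of its other probe sets, 1431413_at was lower by -0.76 in neurospheres and -0.93 in cultured cells, while 1447474_at lay between 4.87 and 5.32 on all arrays.

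Ramp2, a partner for adrenomedullin that is needed for vessel development in mice, separated the 2 cultures. It read 8.60, 9.08 and 9.03 in neurospheres and 7.07, 7.14 and 7.05 in cultured cells, against 9.54, 9.43 and 9.59 in tissue. No groups overlapped, and the order was tissue, neurospheres, cultured cells. Cultured cells were 5.41-fold below tissue (-2.44 ± 0.08), and neurospheres exceeded cultured cells by 1.82 ± 0.13 (3.53-fold). Neurospheres were 1.53-fold below tissue (-0.62 ± 0.13), just inside the fold threshold, and this difference was -0.47 without neurosphere replicate 1 and -0.58 without tissue replicate 3, both outside it. A further 2 probe sets name Ramp2 together with Vps25 and were left out.

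Ramp3, the other adrenomedullin partner, spanned less. Its signals were 6.03, 5.52 and 5.58 in neurospheres and 5.59, 5.19 and 5.10 in cultured cells, against 6.50, 6.36 and 6.39 in tissue. Tissue was above both cultures, which overlapped. The difference from tissue was -0.71 ± 0.14 (1.63-fold lower) in neurospheres and -1.12 ± 0.13 (2.17-fold lower) in cultured cells, and neurospheres exceeded cultured cells by 0.42 ± 0.17, not past the rule. With quantile normalisation of the arrays, the neurosphere difference was -0.42 and not past the rule.

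Set side by side, the signals of Adm and Calcrl were both higher in neurospheres than in tissue, by 1.55 for Adm and 2.41 for Calcrl. The adrenomedullin partners Ramp2 and Ramp3 were lower there, with differences of -0.62 and -0.71. Neither of these passed with a fold over 2 or under every other alternative run. Cultured cells had the highest Adm signals of the 3 groups and the lowest signals of Ramp2, and neurospheres had the highest Calcrl signals. For Calcrl, cultured cells were lowest by 1425814_a_at only.

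**Figure D4:**
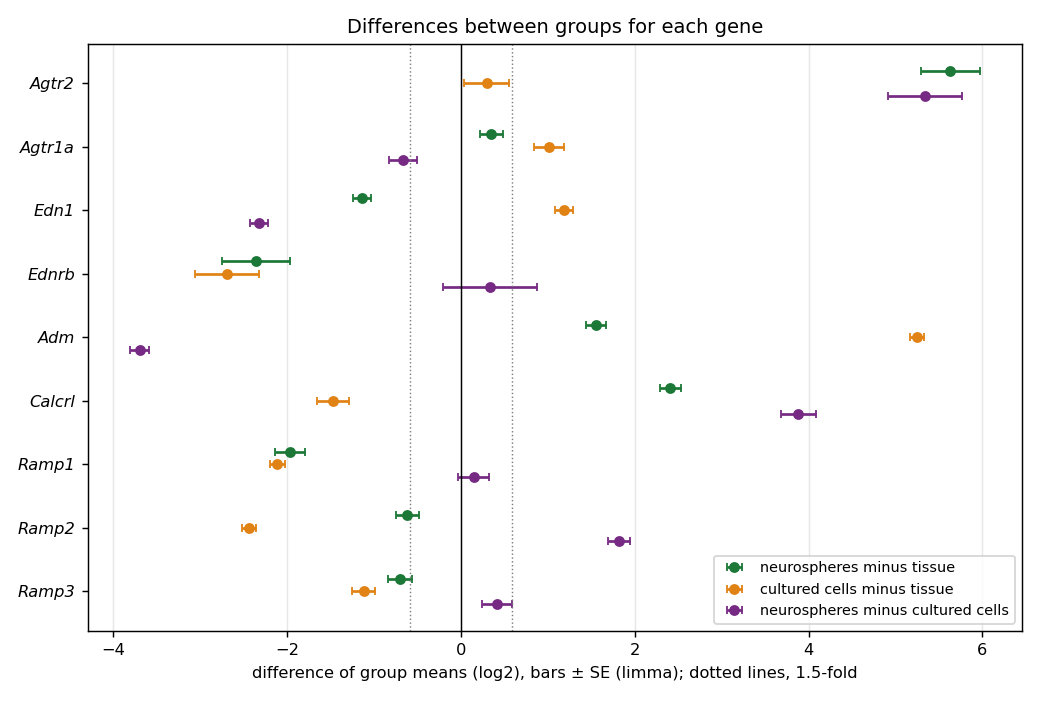
Difference of group means on the log2 scale (horizontal axis) with its standard error for the 9 measured genes, for each culture minus tissue and for neurospheres minus cultured cells, with dotted lines at 1.5-fold. Agtr2 differs by 5.63 and 5.34 in the contrasts that involve neurospheres, Adm by 5.25 in cultured cells against tissue, and Edn1 and Calcrl change sign between the cultures.

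The other genes of these pathways were taken from 4 lists of 48 genes, of which 42 were measured. In neurospheres against tissue 20 of the 42 passed the test (11 rose and 9 fell), and in cultured cells against tissue 23 passed (14 rose and 9 fell), against the 42.7% and 42.4% of all genes given above. Between neurospheres and cultured cells 12 passed (7 rose and 5 fell), beside 17.9% of all genes. The comparisons share arrays, so their counts are not independent of each other.

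Of 14 other angiotensin genes measured, 3 rose and 2 fell in neurospheres against tissue, and 5 rose and 3 fell in cultured cells against tissue. Agt, which encodes angiotensinogen, the precursor of all angiotensin peptides, read 7.38, 7.01 and 7.09 in neurospheres and 6.76, 6.44 and 6.96 in cultured cells, against 9.06, 8.98 and 9.06 in tissue. It fell by 1.87 ± 0.11 in neurospheres (limma adjusted p = 9.25e-07) and fell by 2.31 ± 0.13 in cultured cells (adjusted p = 1.56e-07). Mtus1, which encodes a protein that binds the tail of the type 2 receptor, fell by 3.51 ± 0.13 in neurospheres (limma adjusted p = 4.4e-08) and fell by 3.46 ± 0.11 in cultured cells (adjusted p = 4.61e-09). In neurospheres, where Agtr2 was high, the signals of this partner were 7.11, 7.57 and 7.26, against 10.73, 10.82 and 10.92 in tissue. The genes that rose in both cultures were 3 peptidases, Thop1, Nln and Prcp, which cleave angiotensins and other peptides. Thop1 rose by 1.37 ± 0.09 in neurospheres (limma adjusted p = 2.13e-06) and by 1.54 ± 0.10 in cultured cells (adjusted p = 3.92e-07), while its second probe set, 1425402_at, differed by 0.05 in each. With averaged probe sets Prcp differed by 0.56 in neurospheres, under the fold threshold.

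Between neurospheres and cultured cells 3 of the 14 angiotensin genes rose and 2 fell. Agtr1b, the second type 1 receptor gene of mice, read 3.97, 4.10 and 3.91 in neurospheres and 5.17, 5.53 and 4.96 in cultured cells, against 4.41, 4.05 and 3.94 in tissue. It fell by 1.23 ± 0.14 in neurospheres against cultured cells (limma adjusted p = 0.000305) and rose by 1.08 ± 0.16 in cultured cells against tissue (adjusted p = 0.000248), so both type 1 receptor genes had their highest signals in cultured cells. All Agtr1b and most Agtr1a signals were under the lowest array median of 6.15. Without a detection call, such low signals cannot be told apart from background. Ace, the enzyme that makes angiotensin II, rose by 0.73 ± 0.10 in neurospheres against cultured cells (limma adjusted p = 0.000694). With the mean of its probe sets that difference was 0.52 and not past the fold threshold. Mme, the peptidase neprilysin, fell by 1.01 ± 0.22 (limma adjusted p = 0.0074), and by the methods' t-test its adjusted p was 0.0783.

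Of 5 other endothelin genes, 2 rose and 3 did not pass in each culture against tissue, and between the cultures all 5 differences lay between -0.20 and 0.27, under the fold threshold. Both that rose encode the converting enzymes that release active endothelin from its precursor. Ece2 read 8.53, 8.42 and 8.50 in neurospheres and 8.14, 8.33 and 8.15 in cultured cells, against 6.42, 6.12 and 6.08 in tissue. It rose by 2.28 ± 0.11 in neurospheres (limma adjusted p = 2.52e-07) and by 2.00 ± 0.11 in cultured cells (adjusted p = 1.86e-07), although its second probe set, 1424561_at, differed by only 0.08 in neurospheres and -0.33 in cultured cells. Ece1 rose by 0.91 ± 0.11 in neurospheres (limma adjusted p = 7.41e-05) and by 0.87 ± 0.08 in cultured cells (adjusted p = 7.92e-06). The peptide genes Edn2 and Edn3 did not pass in any comparison. For Edn3, a known ligand of the type B receptor, the signals were 6.06 to 6.25 in neurospheres and 6.25 to 6.54 in cultured cells, against 6.05 to 6.58 in tissue.

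Of 6 other adrenomedullin and CGRP genes measured, Pam and Ackr3 passed a test. Pam, the enzyme that gives adrenomedullin and CGRP their active amide end, rose by 0.99 ± 0.12 in neurospheres (limma adjusted p = 0.000101) and by 1.08 ± 0.10 in cultured cells (adjusted p = 8.63e-06) against tissue. Ackr3, a receptor that takes up adrenomedullin and the chemokine CXCL12 without coupling to G proteins, read 9.23, 8.55 and 8.57 in neurospheres and 10.57, 10.82 and 10.90 in cultured cells, against 10.40, 10.40 and 10.64 in tissue. It fell in neurospheres by 1.70 ± 0.18 against tissue (limma adjusted p = 4.36e-05) and fell by 1.98 ± 0.19 against cultured cells (adjusted p = 9.28e-05). Ackr3 thus had its lowest signals in neurospheres, where Calcrl had its highest. The related peptide gene Adm2 and the CGRP gene Calcb did not pass, with differences between -0.01 and 0.09.

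Of 17 measured genes of G protein coupling and desensitisation, 5 rose and 6 fell in neurospheres against tissue, 6 rose and 6 fell in cultured cells against tissue, and 4 rose and 2 fell in neurospheres against cultured cells. Those with the widest neurosphere rises encode RGS proteins, which shorten the signal of G proteins. Rgs4 read 11.43, 11.72 and 11.61 in neurospheres and 8.52, 8.31 and 8.46 in cultured cells, against 7.25, 7.92 and 7.90 in tissue. It rose in neurospheres by 3.90 ± 0.18 against tissue (limma adjusted p = 2.02e-07) and by 3.16 ± 0.10 against cultured cells (adjusted p = 5.9e-07), with the same direction in all 3 of its probe sets. In cultured cells against tissue Rgs4 rose by 0.74 ± 0.17 (limma adjusted p = 0.00362), which was 0.52 and under the fold threshold without tissue replicate 1.

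Rgs16 rose in neurospheres by 2.98 ± 0.15 against tissue (limma adjusted p = 3.61e-07) and by 1.95 ± 0.20 against cultured cells (adjusted p = 0.000136). Rgs5, which is typical of pericytes, fell by 2.00 ± 0.19 in cultured cells (limma adjusted p = 8.9e-06) and fell by 1.10 ± 0.24 in neurospheres (adjusted p = 0.00372) against tissue. Its probe sets disagreed, with 1420942_s_at at 1.86 in neurospheres and 1.03 in cultured cells, and the neurosphere difference did not pass when they were averaged (-0.16, adjusted p = 0.553) or by the methods' t-test (adjusted p = 0.0523). Adcy9, an adenylate cyclase, fell by 2.75 ± 0.12 in neurospheres (limma adjusted p = 1.1e-07) and fell by 2.88 ± 0.12 in cultured cells (adjusted p = 1.92e-08). Arrb1, which encodes a beta-arrestin, fell by 1.38 ± 0.10 in cultured cells (limma adjusted p = 1.38e-06). Plcb4, a phospholipase C that acts below Gq, fell by 1.29 ± 0.08 in neurospheres against cultured cells (limma adjusted p = 1.26e-05).

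**Figure D5:**
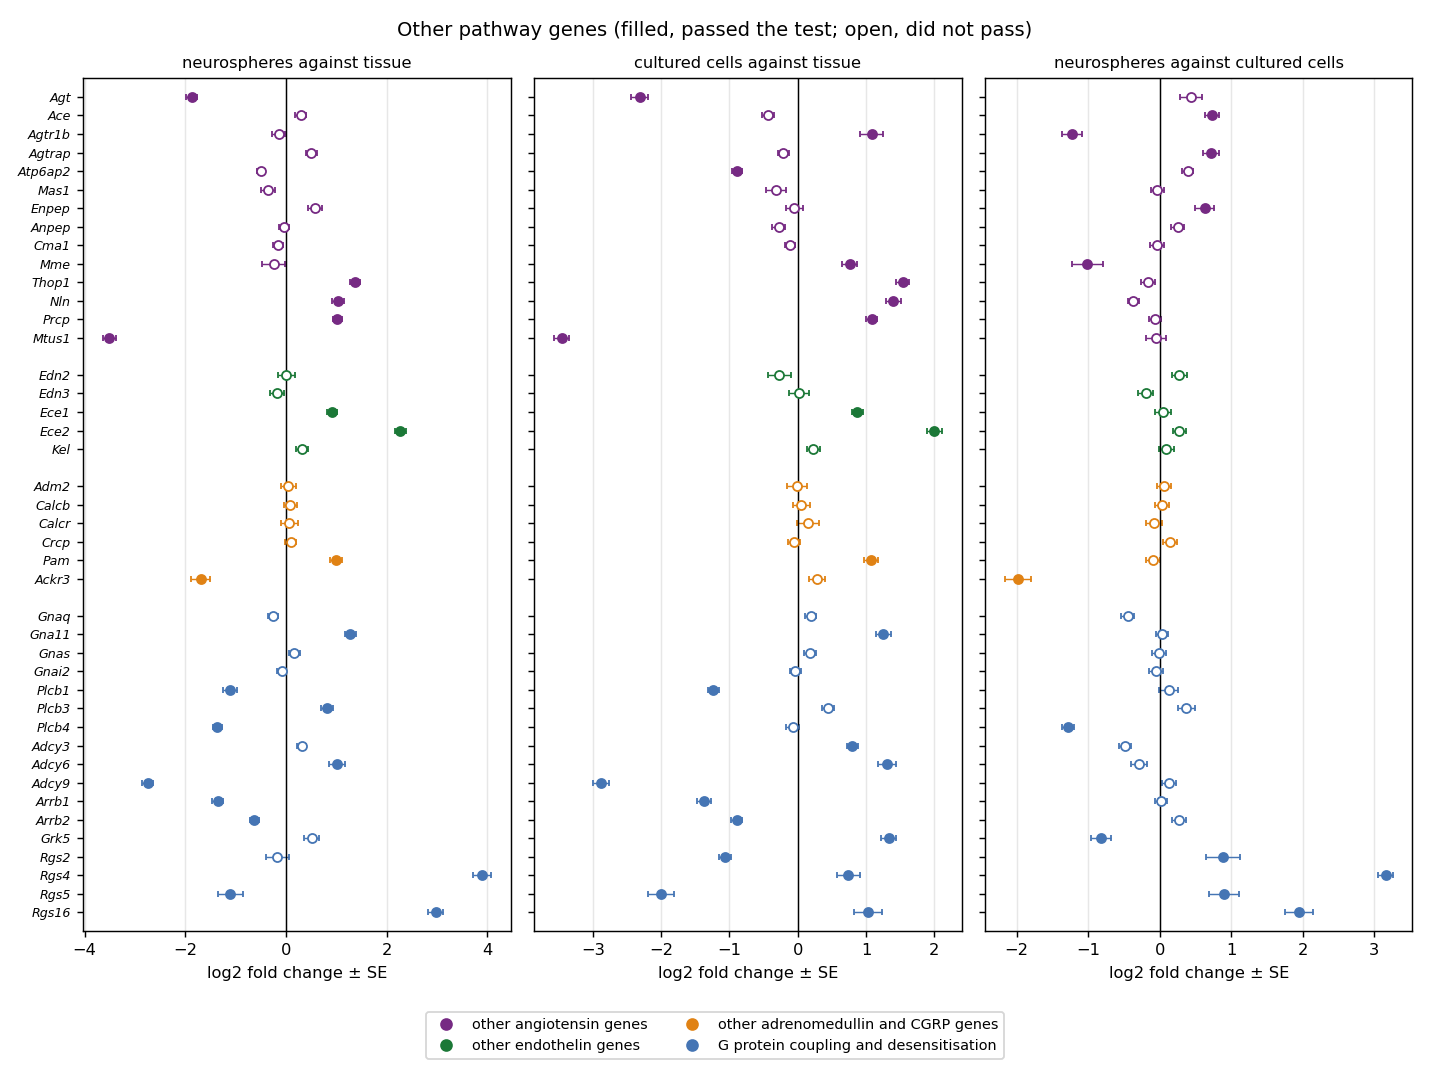
Log2 fold change ± standard error (horizontal axis) of the 42 other pathway genes in the 3 comparisons (1 panel each), coloured by list, with filled points for genes that passed the test (limma). Rgs4 stands at 3.90 and Mtus1 at -3.51 in neurospheres against tissue.

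The genes whose signals most resembled each gene of the set over the 9 arrays were ranked by Pearson's r among 8034 genes with a range of at least 1. The arrays form 3 groups and share culture, medium and RNA integrity, so r carries the differences between groups and is given without a p-value. Closest to Agtr2 were Nwd2 (r = 0.99), Scx (r = 0.99), a transcription factor of tendon cells, and Nxph3 (r = 0.99). Scx averaged 8.05 in neurospheres and 5.50 in cultured cells, against 5.66 in tissue. Ednrb was closest to Sox2 (r = 0.97), a transcription factor of neural progenitors and glia, then to Golga4 (r = 0.97) and Exph5 (r = 0.965). Sox2 averaged 7.47 in neurospheres and 6.64 in cultured cells, against 10.67 in tissue.

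Adm had its nearest patterns in 1810010H24Rik, Myh9, the heavy chain of nonmuscle myosin, and Colec10 (r = 0.997 each), and Edn1 in C1qtnf1, Cited2 and Ptprd (r = 0.995 each). Myh9 averaged 11.63 in neurospheres and 12.77 in cultured cells, against 11.09 in tissue. Calcrl was closest to Pde10a, a phosphodiesterase, Tspan11 and Pld1 (r = 0.995, 0.994 and 0.993), and Pde10a averaged 9.92 in neurospheres and 6.97 in cultured cells, against 8.23 in tissue. For the receptor activity-modifying proteins the nearest genes were Tubgcp5, Cd33 and Cdk5r1 for Ramp1, Ppm1h, Enox1 and Hfe for Ramp2, and Trpm2, Liph and Pcyt2 for Ramp3. Agtr1a was closest to Tmem106a, Spem1 and Cdh26, with r = 0.96, 0.95 and 0.94.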

How the data were processed

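Total RNA (100 ng a sample) from 9 samples was labelled with the 3′ IVT Express kit and hybridised to Affymetrix mouse genome arrays. The table deposited by the authors holds log2 signals computed with RMA in Affymetrix Expression Console. Its version is not given in the sources used here, and MAS5 values were not used here. Of 45101 probe sets, 64 were controls, 34945 named 1 gene, 932 several and 9160 none. Symbols came from the platform annotation, and for each of 18193 genes the probe set of highest average signal among those naming only that gene was used.

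Differences were tested 2-sided by lmFit and eBayes of limma 3.58.1 under R 4.3.3, on the 6 arrays of a comparison, with Benjamini-Hochberg adjustment over all genes. A gene passed at an adjusted p under 0.05 and a fold over 1.5. The study's methods name Student's unpaired test, which limma replaced because 3 arrays give a poor spread for 1 gene. The pipeline was tested on simulated data. With arrays, the number of samples limits the precision.

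The genes described and all gene lists were chosen with earlier results of these data known. The text names every gene of the set, the up to 3 genes with the largest change among those that passed in each list of other pathway genes and comparison, and the 3 genes with the highest Pearson's r to each gene of the set. Other genes, such as Nln, Prcp, Agtr1b in cultured cells against tissue, Edn2, Edn3, Adm2, Calcb, Ldha, Ndrg1, Vegfa, Acta2, Tagln, Cnn1, Myh11, Abcc9, Kcnj8, Kit, Tyr, Mitf, Sox10, Erbb3, Ngfr, Pmp22, Mbp and S100b, were named after their values were seen. Listed genes without a measured value are not reported here.

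Alternatives were averaging all probe sets of a gene, dropping shared probe sets, 2 other array scalings (by the median of highly expressed genes and by quantiles), dropping the 40% of genes of lowest average signal, 1 fit to all 9 arrays, a trended and robust prior, the methods' t-test, a fold over 2, a block on replicate number, and dropping 1 array at a time. Promoter sequences came from a RefSeq table on GRCm38.p6, where 7 of the 9 measured genes had an entry.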

Additional observations from a re-analysis of the deposited data

How the results depend on the processing

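Counts of pathway genes that passed stayed within 1.5 times of 20, 23 and 12 under all alternatives run, except that a fold over 2 left 6 of the 12 between neurospheres and cultured cells. Leaving out 1 array gave 19 to 22 in neurospheres against tissue, 22 to 23 in cultured cells against tissue and 10 to 12 in the comparison of the cultures, and for the genes of the set 7 to 8, 8 to 9 and 5 to 6. When the probe sets of a gene were averaged, 4 differences that had not passed changed sign and passed by limma: Mme in neurospheres against tissue was 1.19 in place of -0.25 (adjusted p = 0.00129), Plcb4 in cultured cells against tissue was 1.34 in place of -0.07 (adjusted p = 6e-06), and Gnai2 was 0.60 in place of -0.09 in neurospheres (adjusted p = 0.000169) and 0.75 in place of -0.03 in cultured cells (adjusted p = 8.44e-06). In each, at least 1 other probe set of the gene differed in sign from the one used. Quantile normalisation moved the median of all genes by 0.12 in cultured cells against tissue and changed no direction among the genes of the set.

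Whether replicate numbers pair the samples could not be settled with 3 arrays a group. The correlation of same-numbered deviations was -0.09, -0.06 and -0.06 for neurospheres and tissue, 0.21, 0.07 and 0.13 for cultured cells and tissue, and -0.10, -0.19 and 0.04 for neurospheres and cultured cells. Differently numbered arrays gave -0.02 to 0.07, -0.17 to 0.08 and -0.09 to 0.21 in the same order. With the replicate block, 20, 23 and 12 pathway genes and 8, 8 and 6 genes of the set passed in the comparisons in that order, the same counts as without it. With 3 arrays a group and no detection call, differences between low signals, such as Agtr2 in cultured cells against tissue, could not be resolved.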
